A study of Homo sapiens with 7 samples.

Results

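The genes described here are ATF4 and 9 genes of the integrated stress response, DDIT3, CHAC1, TRIB3, ASNS, ATF3, PPP1R15A, SESN2, DDIT4 and PSAT1. They were taken by gene symbol from the platform's probe table, and all 10 were on the array, represented by 13 of its 31741 probes (10 of 18336 genes). The samples were Huh7 cells, an established human hepatoma line, grown in multi-well plates and left untreated (0 h) or given 1 interferon for 6 h or 16 h. The type I interferon was IFN-α at 10 IU/ml, and the type III interferons were IFN-λ1 and IFN-λ4, each at 20 ng/ml. The doses of the 2 types were stated in different units, so equal potency cannot be assumed. Each of the 7 conditions was measured on 1 one-colour array, with no replicate, and 1 untreated array served as the reference for both times. All 10 genes passed the filter on dim genes, which left 12835 of the 18336 genes.

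The integrated stress response begins when 1 of 4 kinases phosphorylates the translation initiation factor eIF2α, which lowers protein synthesis in general while favouring translation of ATF4 messenger RNA. The ATF4 protein then activates genes of amino acid supply, redox balance and cell fate, often together with C/EBP family partners. Because much of the control of ATF4 is translational, its messenger RNA level is not a measure of the protein. One of the 4 kinases, PKR (EIF2AK2), is itself the product of an interferon-induced gene.

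The median probe intensity of the arrays lay between 494 and 633 units before quantile normalization. All 10 hepatocyte and hepatoma markers on the array were above the dim level of 265 units. Among markers of other cell types, 5 of 8 leukocyte, 4 of 7 fibroblast and 4 of 6 endothelial genes were above that level too. The leukocyte markers PTPRC, CD3E and CD4 were on average below it. So were the fibroblast markers COL3A1, ACTA2 and DCN and the endothelial markers KDR and CLDN5. The interferon-stimulated genes IFIT1, ISG15, OAS1, MX1 and IFI6 were at least 2-fold above untreated on all 6 treated arrays. The arrays of IFN-λ1 and IFN-λ4 at the same time differed by a median of 0.203 log2 over all genes at 6 h and 0.127 at 16 h. The IFN-α 16 h array differed from the other arrays by medians of 0.307 to 0.341.

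ATF4 binds, with C/EBP partners, a composite site called the C/EBP-ATF response element. Its core was searched as TGATGNAA, or TTNCATCA for the other strand, in RefSeq promoter windows of GRCh38.p14 that run from 250 bases before to 50 bases after a gene start. All 10 genes had at least 1 window, 16 windows in all. The core occurred in 3 of these 16 windows (18.8%), 1 each of ASNS, CHAC1 and ATF3, and in 3.62% of all 35116 windows. ASNS and ATF3 each had another start whose window did not hold it. The core lay in ASNS and CHAC1, which were lower with IFN-α than with IFN-λ at both times. It also lay in ATF3, which was higher with IFN-α at 6 h. No window of TRIB3, PPP1R15A, SESN2, DDIT4 or PSAT1 held it, although these genes too differed between the interferon types at 16 h. The windows of ATF4 and DDIT3 did not hold it either. Whether the core has a part in these differences was not tested. Each of the 3 windows with the core is written 5′ to 3′ on the strand of the gene, with the matched core in capitals.
ASNS, chr7:97872359-97872658, minus strand, core beginning 68 bases before the start: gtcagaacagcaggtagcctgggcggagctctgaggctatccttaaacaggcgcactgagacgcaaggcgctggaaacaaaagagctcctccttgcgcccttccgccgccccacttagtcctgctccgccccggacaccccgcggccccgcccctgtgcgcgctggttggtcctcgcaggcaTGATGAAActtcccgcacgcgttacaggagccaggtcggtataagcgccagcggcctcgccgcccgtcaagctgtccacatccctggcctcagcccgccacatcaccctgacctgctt
CHAC1, chr15:40953221-40953520, plus strand, core on the opposite strand beginning 209 bases before the start: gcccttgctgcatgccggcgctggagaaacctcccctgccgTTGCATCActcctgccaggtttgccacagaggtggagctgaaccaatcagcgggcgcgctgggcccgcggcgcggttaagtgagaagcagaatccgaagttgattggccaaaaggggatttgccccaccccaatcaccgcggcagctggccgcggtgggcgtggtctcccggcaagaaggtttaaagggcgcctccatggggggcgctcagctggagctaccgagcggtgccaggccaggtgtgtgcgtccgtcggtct
ATF3, chr1:212565157-212565456, plus strand, core beginning 191 bases before the start: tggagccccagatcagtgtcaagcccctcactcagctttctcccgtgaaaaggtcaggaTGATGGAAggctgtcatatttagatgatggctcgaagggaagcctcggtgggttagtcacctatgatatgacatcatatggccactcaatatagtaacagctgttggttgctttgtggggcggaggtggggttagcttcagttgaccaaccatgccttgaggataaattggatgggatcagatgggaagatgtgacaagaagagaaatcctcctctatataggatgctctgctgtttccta
A match of letters is a description of the sequence and not evidence of a bound site.

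ATF4 itself, the transcription factor at the centre of the pathway, differed by less than 2-fold between any of the arrays. Its normalized intensity was 135171 units in untreated cells. The IFN-α arrays read 138737 units at 6 h and 151926 at 16 h. Under IFN-λ1 the 2 times read 169195 and 128553 units, and under IFN-λ4 they read 158984 and 119646 units. The differences from untreated ran from -0.18 to 0.32 log2. By this probe, the brighter of 2, the IFN-α values lay inside the range of the IFN-λ values. The dimmer probe read 642 and 819 units with IFN-α, below the 925 to 1037 units under IFN-λ.

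By the brighter probe where a gene had 2, the amino acid and redox genes separated the 2 interferon types. ASNS encodes asparagine synthetase. It read 18853 units in untreated cells, 14033 and 8011 units with IFN-α at 6 h and 16 h, 28551 and 25557 units under IFN-λ1, and 35760 and 28854 units with IFN-λ4. Both IFN-α arrays were below untreated and all 4 IFN-λ arrays were above it, from 2.35-fold lower with IFN-α at 16 h to 1.90-fold higher with IFN-λ4 at 6 h. CHAC1 encodes an enzyme that degrades glutathione. It read 431 units in untreated cells, 182 and 128 units with IFN-α, 615 and 526 units under IFN-λ1, and 1044 and 569 units with IFN-λ4, each at 6 h and then 16 h. As for ASNS, both IFN-α arrays were below untreated and all 4 IFN-λ arrays above it. The values ran from 3.37-fold lower with IFN-α at 16 h to 2.43-fold higher with IFN-λ4 at 6 h. The 2 IFN-α values of CHAC1 were below the dim level, so their distance from untreated is less certain than that of ASNS. PSAT1, an enzyme of serine synthesis, read 88658 units in untreated cells, 71271 and 71135 with IFN-α, 100065 and 110611 under IFN-λ1, and 93027 and 125202 with IFN-λ4. By this probe, the brighter of 2, its IFN-α arrays were the lowest of the 7 and no array was 2-fold from untreated. The dimmer probe was at -1.13 log2 from untreated with IFN-α at 6 h and at -0.87 under IFN-λ4 at 6 h.

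SESN2 and DDIT4, which encode stress-induced inhibitors of mTORC1 signalling, lay on the same sides of untreated as ASNS. SESN2 read 6297 units in untreated cells, 5579 and 4039 with IFN-α, 6945 and 6600.3 under IFN-λ1, and 8770 with IFN-λ4 at 6 h and 6604 at 16 h. DDIT4 read 364 units in untreated cells, 281 and 176 with IFN-α, 589 and 374 under IFN-λ1, and 724 and 416 with IFN-λ4. In both genes the IFN-α arrays were below untreated and the IFN-λ arrays above it. At 16 h the IFN-λ1 and IFN-λ4 differences were small, at 0.07 and 0.07 log2 for SESN2 and 0.04 and 0.19 for DDIT4. On deposited values DDIT4 under IFN-λ1 at 16 h was below untreated, at 363 against 396 units. DDIT4 read at most 724 units, against the dim level of 265 units. Its IFN-α 6 h value was near that level, and its IFN-α 16 h value, 2.06-fold below untreated, was under it.

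The feedback genes TRIB3 and PPP1R15A lay on opposite sides with IFN-α. TRIB3 encodes a pseudokinase that binds ATF4 and CHOP and limits their activity. It read 16887 units in untreated cells, 10379 and 6223 with IFN-α, 13636 and 12623 under IFN-λ1, and 12403 and 13061 with IFN-λ4. By this probe, the brighter of 2, untreated cells were the highest of the 7 and IFN-α at 16 h the lowest. The IFN-α range by this probe lay below the IFN-λ range. PPP1R15A encodes GADD34, the subunit that directs protein phosphatase 1 to eIF2α and so ends the response. It read 3004 units in untreated cells, 3495 and 11604 with IFN-α, 1787 and 2586 under IFN-λ1, and 2282 and 2429 with IFN-λ4. Both IFN-α arrays were above untreated and all 4 IFN-λ arrays were below it, with only the IFN-α 16 h array more than 2-fold away.

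DDIT3 and ATF3 encode stress-induced bZIP factors, and DDIT3 is also called CHOP. DDIT3 read 13439 units in untreated cells, 18357 and 17819 with IFN-α, 9708 and 12475 under IFN-λ1, and 12084 and 13018 with IFN-λ4. Both IFN-α arrays were above untreated and all 4 IFN-λ arrays below it, by at most 0.47 log2 in either direction. At 16 h the differences were -0.11 under IFN-λ1 and -0.05 with IFN-λ4, small enough for their side to depend on the scaling. ATF3 read 1465 units in untreated cells, 5324 and 2073 with IFN-α, 1512 and 1842 under IFN-λ1, and 1946 and 1571 with IFN-λ4. It was highest with IFN-α at 6 h, and the IFN-α 16 h value was only just above the highest IFN-λ value. All 6 treated arrays read above untreated.

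**Figure D1:**
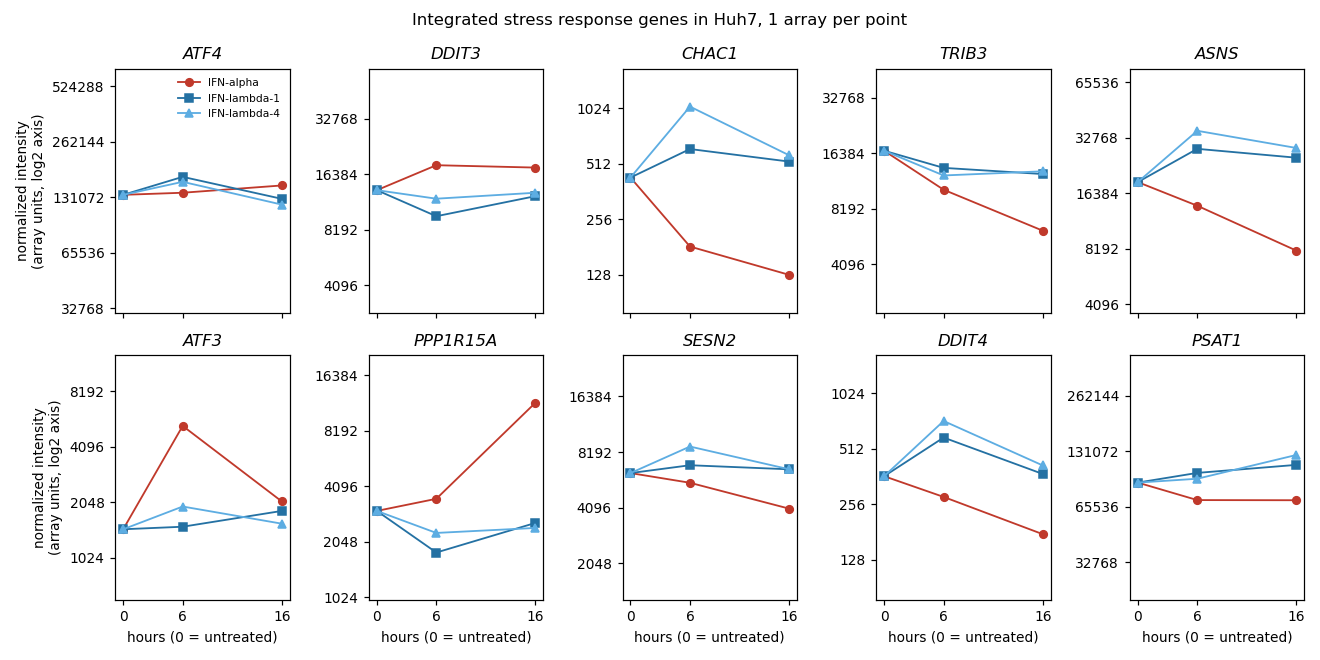
Normalized intensity (log axis) of each of the 10 genes against hours of treatment, with the untreated array at 0 h and 1 line per interferon; each point is 1 array. Genes with 2 probes are shown by the brighter one. ASNS, CHAC1, DDIT4, SESN2, PSAT1 and TRIB3 lie lowest with IFN-α, while DDIT3, ATF3 and PPP1R15A lie highest with it and ATF4 is mixed.

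Set against the single untreated array, few genes of the set passed 2-fold. With IFN-α at 6 h, 1 of 10 was at least 2-fold higher (ATF3; 3.9% of all genes tested) and 1 at least 2-fold lower (CHAC1; 2.83%). With IFN-α at 16 h, 1 was higher (PPP1R15A; 5.75% of all genes) and 4 were lower (CHAC1, TRIB3, ASNS and DDIT4; 3.45%). With IFN-λ4 at 6 h, CHAC1 alone was 2-fold higher, against 2.04% of all genes, and none was 2-fold lower, against 1.23%. The other IFN-λ arrays held no gene of the set past 2-fold. The background shares there were 1.07% higher and 0.662% lower for IFN-λ1 at 6 h, 0.958% and 0.234% for IFN-λ1 at 16 h, and 0.989% and 0.203% for IFN-λ4 at 16 h. The median difference from untreated over the 10 genes was -0.24 log2 for the earlier and -0.48 for the later IFN-α array, against 0.01 and -0.08 over all genes. With IFN-λ it ran from 0.05 to 0.32, against -0.03 to 0.03 over all genes. These 6 comparisons share the 1 untreated array, whose time in culture was not matched to the treated cells, and none of them has a replicate. Another scaling, by array medians, moved the median of all genes by 0.21 log2 for IFN-α at 6 h, -0.09 for IFN-α at 16 h, and 0.19 and 0.10 for IFN-λ4 at 6 h and 16 h.

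IFN-α was then compared directly with the type III interferons, with the IFN-λ1 and IFN-λ4 arrays of a time taken as 1 arm. The genes were chosen with earlier results of these data known. Their counts beside the shares of all genes are therefore not an independent comparison. At 16 h, 7 of the 10 genes passed an adjusted p of 0.05 in limma, against 14.9% of all 12835 genes. Of these, 6 were lower with IFN-α, where 7.21% of all genes were lower, and 1 was higher, where 7.7% were higher. ASNS was 3.39-fold lower (log2 difference -1.76, SE 0.18, adjusted p = 0.00295, limma). CHAC1 was 4.28-fold lower (-2.10, SE 0.34, adjusted p = 0.0133). Its IFN-α value was under the dim level, and with that value set at the dim level the fold would be 2.06, against 3.02 in place of 4.40 at 6 h. TRIB3 was 2.06-fold lower (SE 0.14 log2, adjusted p = 0.00753). DDIT4 (-1.16, adjusted p = 0.0276), PSAT1 (-0.73, adjusted p = 0.0188) and SESN2 (-0.71, adjusted p = 0.0477) were also lower. DDIT4, likewise under the dim level with IFN-α, would be 1.49-fold lower from that level in place of 2.24-fold. PPP1R15A was 4.63-fold higher (2.21, SE 0.20, adjusted p = 0.0024). ATF4 (0.29, SE 0.12, adjusted p = 0.143), DDIT3 (0.48, adjusted p = 0.102) and ATF3 (0.29, adjusted p = 0.421) did not pass. The limma spread rests on the differences between IFN-λ1 and IFN-λ4 arrays with 2 residual degrees of freedom, and each IFN-α arm is 1 array assumed to vary like them. CHAC1, TRIB3, ASNS and PPP1R15A passed under every alternative that tested them, whereas SESN2 passed in 3 of 10, DDIT4 in 6 of 9 and PSAT1 in 8 of 10, and without the IFN-λ4 16 h array the count was 4.

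At 6 h, 4 of the 10 genes passed in limma, against 3.77% of all genes, with 3 lower with IFN-α (1.18% of all genes) and 1 higher (2.59%). CHAC1 was lower (-2.14, SE 0.34, adjusted p = 0.0306), as were ASNS (-1.19, SE 0.18, adjusted p = 0.0259) and DDIT4 (-1.22, SE 0.24, adjusted p = 0.0489). ATF3, whose IFN-α value at this time was the highest of its 7 arrays, was 3.10-fold higher with IFN-α (1.63, SE 0.22, adjusted p = 0.0229, limma). TRIB3 (-0.33, adjusted p = 0.221) and PPP1R15A (0.79, adjusted p = 0.0808), which passed at 16 h, did not pass at 6 h. ATF4 differed by -0.24 (95% confidence interval -0.53 to 0.04). CHAC1 and ATF3 passed in every alternative that tested them, ASNS in 8 of 10 and DDIT4 in 5 of 9. Without the IFN-λ4 6 h array, DDIT3 (adjusted p = 0.021) and PPP1R15A (adjusted p = 0.0259) passed too.

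**Figure D2:**
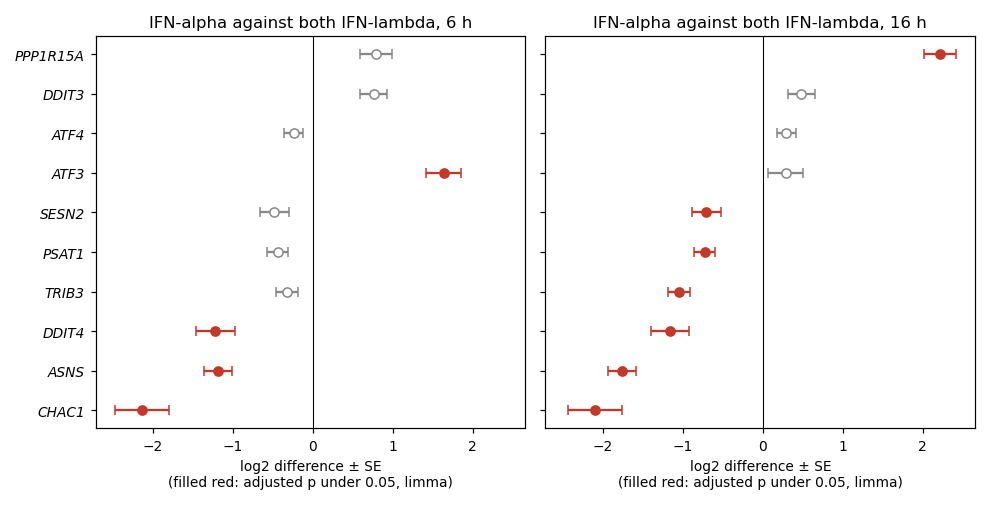
Log2 difference of IFN-α from the 2 IFN-λ arrays for each of the 10 genes at 6 h and at 16 h, with bars for the standard error from limma and filled points for an adjusted p under 0.05; negative values are lower with IFN-α. CHAC1 and ASNS lie below 0 at both times, and PPP1R15A moves from 0.79 to 2.21.

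Over both times, with time as a block, 4 of 10 passed in limma against 2.13% of all genes. Of these, 3 were lower with IFN-α (0.631% of all genes) and 1 was higher (1.5%). They were CHAC1 (-2.12, adjusted p = 0.0102), ASNS (-1.47, adjusted p = 0.0157), DDIT4 (-1.19, adjusted p = 0.0226) and PPP1R15A (1.50, adjusted p = 0.049). ATF4 differed by 0.03, with a 95% confidence interval of -0.31 to 0.36. PPP1R15A passed in 5 of 13 alternatives, CHAC1 in all 12, ASNS in 12 of 13 and DDIT4 in 9 of 12. The count was 1 without the IFN-λ1 arrays and 7 without the IFN-α 6 h array. Without a test, 6 of the 10 genes had both IFN-α arrays below all 4 IFN-λ arrays, against 12.3% of all genes, and 3 had both above, against 10.8%. ATF4 was the gene in neither class. These counts rest on the brighter probe of each gene. By the dimmer probes, TRIB3 and PSAT1 did not separate, since TRIB3 read 929 units under IFN-λ4 at 6 h against 1021 with IFN-α at 6 h, and PSAT1 read 14741 under IFN-λ4 at 6 h against 23036 with IFN-α at 16 h. The dimmer ATF4 probe did separate, with IFN-α the lower.

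Whether the difference between interferon types itself changed from 6 h to 16 h was tested as an interaction. PPP1R15A passed in limma, with a difference larger by 1.42 log2 at 16 h (SE 0.28, adjusted p = 0.0457), as 1 of 10 genes against 5.59% of all genes (2.08% higher, 3.51% lower). From 6 h to 16 h PPP1R15A was 1.73 log2 higher with IFN-α, 0.53 under IFN-λ1 and 0.09 with IFN-λ4. ATF3 went the other way, with steps of -1.36, 0.28 and -0.31 log2, and its interaction was -1.35 (SE 0.32, adjusted p = 0.0575, limma). TRIB3 had steps of -0.74, -0.11 and 0.07 and an interaction of -0.72 (adjusted p = 0.0805, limma). ATF4, by its brighter probe, had an interaction of 0.53 (SE 0.17) that did not pass. The PPP1R15A interaction passed in 5 of 12 alternatives, with values from 1.00 to 1.6 and adjusted p from 0.0175 to 0.116. No gene of the set passed without the IFN-λ1 16 h or the IFN-λ4 16 h array, and 3 passed without the IFN-λ1 6 h or the IFN-λ4 6 h array.

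Comparing the 3 arrays of 16 h with the 3 of 6 h, whichever the interferon, limma called none of the 10 genes and none of the 12835, while 4 of the 10 and 1941 of all genes had an unadjusted p under 0.05. DDIT4 gave the smallest of the 10 p-values, with steps of -0.67 log2 with IFN-α, -0.66 under IFN-λ1 and -0.80 with IFN-λ4 (mean -0.71, SE 0.16, adjusted p = 0.19, limma). Its level was thus lower at 16 h than at 6 h with all 3 interferons. Without the IFN-α arrays, 2 of the 10 genes passed, ATF4 and DDIT4. By its brighter probe ATF4 had steps of 0.13 log2 with IFN-α, -0.40 under IFN-λ1 and -0.41 with IFN-λ4. The dimmer ATF4 probe went the other way under IFN-λ. It read 925 units at 6 h and 1037 at 16 h under IFN-λ1, and 984 and 1019 with IFN-λ4. For all 6 treated arrays against the untreated array, limma called none of the 10 genes, none of which had an unadjusted p under 0.05, and 15 of all genes (0.117%, of which 0.109% higher and 0.00779% lower), with 257 at an unadjusted p under 0.05. The differences of the 10 genes ran from -0.61 to 0.54.

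IFN-λ4 was compared with IFN-λ1, which signals through the same receptor, over both times. In limma, 0 of 10 and 0 of 12835 genes passed, with 0 and 304 at an unadjusted p under 0.05. The differences of the 10 genes ran from -0.10 to 0.44 log2, and their 95% confidence intervals reached from -0.84 to 1.05. CHAC1 had the largest, 0.44 (SE 0.23, interval -0.11 to 0.99). It was 1.70-fold higher with IFN-λ4 at 6 h and 0.11 log2 higher at 16 h. The intervals of PPP1R15A (-0.79 to 1.05), ATF3 (-0.84 to 0.98) and CHAC1 reached about 2-fold, and those of the other genes stayed within 2-fold. The absence of a call therefore does not show that the 2 interferons act alike on these genes.

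ATF4, TRIB3 and PSAT1 each had a second, dimmer probe, and these did not always give the same picture. For TRIB3 the IFN-α to IFN-λ difference was -0.33 log2 at 6 h and -1.05 at 16 h by the brighter probe, and -0.26 and -1.52 by the dimmer. For PSAT1 it was -0.44 and -0.73 by the brighter probe and -0.77 and -0.74 by the dimmer. For ATF4 it was -0.24 and 0.29 by the brighter probe, but -0.57 and -0.33 by the dimmer, so the direction at 16 h depended on the probe. The dimmer probes of TRIB3 and PSAT1 were low on the IFN-λ4 6 h array, at -1.20 and -0.87 log2 from untreated, where the brighter probes gave -0.45 and 0.07. On the IFN-α 6 h array the dimmer probes of PSAT1, TRIB3 and ATF4 gave -1.13, -1.07 and -0.54, and the brighter ones -0.31, -0.70 and 0.04. The IFN-λ4 6 h and IFN-α 6 h arrays had the lowest median intensities of the 7, 509 and 494 units. The part of this in the probes' difference was not tested.

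**Figure D3:**
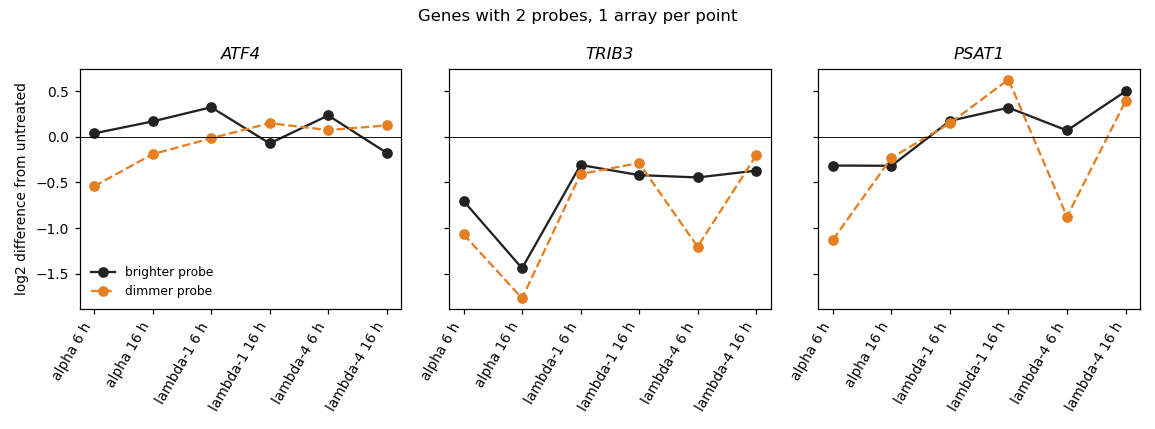
Log2 difference from untreated on each treated array for the brighter and the dimmer probe of ATF4, TRIB3 and PSAT1. The dimmer probes of TRIB3 and PSAT1 lie below the brighter ones on the IFN-λ4 6 h array (-1.20 and -0.87 against -0.45 and 0.07), and all 3 dimmer probes do on the IFN-α 6 h array.

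Across the 7 arrays, ASNS, CHAC1, SESN2 and DDIT4 varied together, with pairwise Pearson correlations of log2 intensity from 0.95 to 0.97. PPP1R15A ran against ASNS (-0.92). ATF4 correlated with the other 9 genes between -0.42 and 0.27. These 7 points share the contrast of the 2 IFN-α arrays with the rest and are given as a description. By the same measure, the genes most like ASNS among 5022 variable genes were NGEF (0.989) and STC2 (0.980), and those most like CHAC1 were F12 (0.993) and KCNE5 (0.987). TRIB3 was closest to PFKM (0.994) and P3H1 (0.985), and PPP1R15A to NRG3 (0.994) and H2BC18 (0.987). SESN2 was closest to SH3BP2 (0.988) and RFLNB (0.987), and DDIT4 to SLC6A9 (0.985) and SH3BP2 (0.984). PSAT1 was closest to SMPDL3B (0.958) and NANP (0.957), DDIT3 to SMAGP (0.977) and MDFIC (0.971), and ATF3 to ZFP37 (0.981) and ZNF282 (0.981). ATF4 was closest to RARA (0.971) and THBD (0.970).

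Upstream of ATF4, the 4 eIF2α kinases differed from one another. EIF2AK2 (PKR) read 1216 units in untreated cells, 3043 and 1419 with IFN-α at 6 h and 16 h, 2263 and 5203 under IFN-λ1, and 1614 and 3719 with IFN-λ4. It was highest at 6 h with IFN-α and at 16 h with both IFN-λ, and at 16 h it was lower with IFN-α (-1.63, SE 0.28, adjusted p = 0.0171, limma). At 6 h the difference was 0.67 (adjusted p = 0.214, limma), and the interaction passed at -2.30 (adjusted p = 0.038, limma). EIF2AK1 (HRI), activated by haem shortage, was lower with IFN-α at 16 h (-0.61, adjusted p = 0.0335, limma). At 16 h EIF2AK3 (PERK), the sensor in the endoplasmic reticulum, gave 0.53 (adjusted p = 0.0889, limma), and EIF2AK4 (GCN2), the amino acid sensor, gave -0.05 (adjusted p = 0.882, limma). The interactions were -0.80 for EIF2AK1, -0.02 for EIF2AK3 and 0.78 for EIF2AK4, and none of these passed. The EIF2AK4 difference was thus more negative at 6 h than at 16 h. A list of 15 genes held those of eIF2, eIF2B and the eIF2α phosphatases, and also DNAJC3, NCK1 and GCN1. Of these, 1 was lower with IFN-α at 16 h and none was higher, a share near the 7.21% of all genes that were lower. The count of lower genes was 1 or 2 over the other scalings, filters and probe rules.

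Downstream, wider lists of ATF4-regulated genes were counted at 16 h in the same limma comparison. In it, 7.21% of all genes were lower with IFN-α and 7.7% higher. These lists, too, were chosen with earlier results of these data known. Of 15 enzymes of amino acid synthesis and one-carbon metabolism, 9 were lower and none was higher, with a median of -0.69 log2 against -0.07 over all genes, and at 6 h none passed in either direction. PYCR1, of proline synthesis, was lower (-1.33, SE 0.19, adjusted p = 0.0101, limma), as was BCAT1, a branched-chain aminotransferase (-1.53, SE 0.14, adjusted p = 0.00224, limma), while PSPH, of serine synthesis, gave -0.24 (adjusted p = 0.423, limma). Of 9 amino acid transporters, 6 were lower and none was higher (median -0.74), whereas at 6 h 1 was higher and none lower. The glutamine carrier SLC1A5 (-1.35, adjusted p = 0.00412, limma) and the cationic amino acid carrier SLC7A1 (-1.02, adjusted p = 0.0251, limma) were lower, and SLC3A2, the shared heavy chain, gave 0.09 (adjusted p = 0.701, limma). Of 14 genes above the dim level among the aminoacyl-tRNA synthetases and the tRNA exporter XPOT, 4 were lower and none was higher (median -0.46). They included IARS1 (-0.72, adjusted p = 0.0137, limma) and EPRS1 (-0.64, adjusted p = 0.0413, limma). VARS1 was lower at 6 h (-1.63, adjusted p = 0.0232, limma) and gave -0.41 at 16 h (adjusted p = 0.254, limma).

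SLC7A11, the cystine carrier that supplies glutathione synthesis, was chosen after its values were seen because its direction differed between the times. It read 8223 units in untreated cells, 19439.9 and 1836 with IFN-α at 6 h and 16 h, 10243 and 9802 under IFN-λ1, and 11485 and 10007 with IFN-λ4. It was thus highest of all arrays with IFN-α at 6 h and lowest with IFN-α at 16 h. From 6 h to 16 h its IFN-α arrays thus crossed the IFN-λ arrays, which is the pattern it was chosen for and is given with no test.

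Of 18 other ATF4 and CHOP targets, 2 were higher and 4 were lower with IFN-α at 16 h (median -0.21). NUPR1, a stress-induced chromatin-associated protein, read 2464 units in untreated cells, 6699 and 27580.5 with IFN-α, 6016 and 6868 under IFN-λ1, and 9253 and 10227 under IFN-λ4. Every treated array was above untreated and IFN-α at 16 h was the highest (1.72 above IFN-λ, adjusted p = 0.0197, limma). TXNIP, which binds thioredoxin, was also higher (1.26, adjusted p = 0.00831, limma). Of 19 genes of the ATF6 and XBP1 branches of the unfolded protein response, which act beside PERK, 12 were lower, against 7.21% of all genes, and none was higher (median -0.82), among them SEC24D (-2.07, SE 0.18, adjusted p = 0.00186, limma) and PDIA4 (-0.69, adjusted p = 0.0432, limma). Over the alternatives the count of lower genes ran from 5 to 9 for the enzymes, 3 to 6 for the transporters, 0 to 5 for the tRNA synthetases, 2 to 5 for the other targets and 7 to 14 for the unfolded protein response. It ran from 1 to 2 for the kinases. The lowest of these counts for the enzymes, transporters, synthetases, other targets and unfolded protein response came from fits without 1 IFN-λ 16 h array, in which the share of all genes called in either direction was 6.59% (without IFN-λ1) or 6.14% (without IFN-λ4) in place of 14.9%. Among markers of other cell types at 16 h, MS4A1 of 5 leukocyte genes was higher with IFN-α (2.54), PDGFRB of 4 fibroblast genes was lower (-0.90) and PECAM1 of 4 endothelial genes was lower (-0.88). Summed leukocyte markers ran from 7519 to 12629.6 units with IFN-α and from 10824 to 13550.1 under IFN-λ. Summed fibroblast markers ran from 4858 to 5121 and from 5348 to 6613 units, and endothelial markers from 3351 to 4137 and from 4101 to 4873 units. Their part in these results was not tested.

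**Figure D4:**
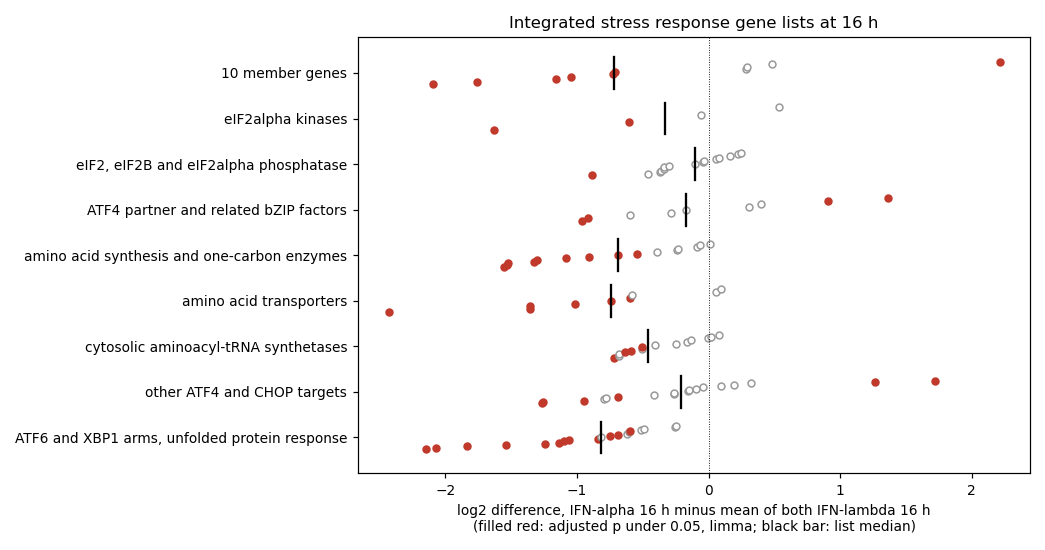
Log2 difference of IFN-α from IFN-λ at 16 h for the genes of each list, 1 point per gene above the dim level, with filled points passing an adjusted p of 0.05 in limma and a bar at the list's median. The enzymes, transporters and unfolded protein response genes have medians of -0.69, -0.74 and -0.82, and all of their called genes are lower.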

How the data were processed

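RNA from 7 cultures of Huh7 cells was hybridised to one-colour arrays, 1 per condition, after amplification and Cy5 labelling, per the labels' protocols. The authors deposited linear intensity values, already scaled by a rule not given in the sources used here, as were the scanner settings. Of 31741 probes, 24740 had 1 gene symbol, 977 several and 6024 none, and 1948 symbols were updated through RefSeq. Values were raised to a floor of 1 unit, put on the log2 scale and quantile normalized, because array medians spread over more than the limit of 0.2 log2. Each gene was read from its probe of highest mean, and genes under the 30th percentile of mean level (265 units) were left out of tests. Tests used limma 3.58.1 in R 4.3.3 with an intensity trend and Benjamini-Hochberg adjustment over 12835 genes, and limma was tested on simulated data. Nothing states that the arrays hold separate cultures beyond the 7 conditions, so p-values measure the spread between these arrays, whose number limits the precision. The genes and lists were chosen with earlier results of these data known. Named genes were all 10 genes, from each list the 3 with the largest mean difference from untreated, every eIF2α kinase, and the 2 genes most correlated with each of the 10. Other scaling, filters, probe rules, fold limits and models, and fits without single arrays, were tried. Fits without single arrays were chosen after seeing the data. Sequences are RefSeq's for GRCh38.p14.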

Additional observations from a re-analysis of the deposited data

Results flagged for a closer look

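The difference of PPP1R15A between IFN-α and IFN-λ was itself different at the 2 times, by 1.42 log2 (adjusted p = 0.0457, limma). PPP1R15A encodes the phosphatase subunit that reverses eIF2α phosphorylation. Its difference was 0.79 at 6 h and 2.21 at 16 h, and the 16 h value rests on 1 IFN-α array, which read 11604 units against 3004 in untreated cells. The call was lost in 7 of 12 alternatives, in which adjusted p reached 0.116.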

How the results depend on the processing

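No pairing of replicates was possible because the labels give no replicate numbers and each condition had 1 array. Time or interferon was a block in the fits over several arrays. Between IFN-α and IFN-λ at 16 h, ASNS, CHAC1, TRIB3 and PPP1R15A kept their calls under every alternative that tested them. The 7 calls became 4, the same 4 genes, without the IFN-λ4 16 h array. At 6 h the 4 calls became 2 with median centring and 2 with the 50th percentile filter, which takes CHAC1 and DDIT4 out of the test, and 6 without the IFN-λ4 6 h array, with DDIT3 and PPP1R15A added. Over both times the 4 calls became 2 on deposited values, 1 with that filter, 2 without the time block, 1 without the IFN-λ1 arrays and 7 without the IFN-α 6 h array. The 1 interaction call became 0 with no filter, low values raised, every probe, no trend, or without the IFN-λ1 16 h or IFN-λ4 16 h array, 2 with the 50th percentile filter, and 3 without the IFN-λ1 6 h or IFN-λ4 6 h array. With median centring the count stayed 1, but PPP1R15A (1.00, adjusted p = 0.116) gave way to ATF3 (-1.65, adjusted p = 0.0457). The 0 calls of 16 h against 6 h became 2 without the IFN-α arrays. Against untreated, the 1 gene 2-fold lower with IFN-α at 6 h became 0 with the 50th percentile filter, 2 at 1.5-fold and 0 at 3-fold, and the 4 at 16 h became 2 with that filter and 1 at 3-fold. For IFN-λ1 at 6 h the 0 higher and 0 lower became 2 and 1 at 1.5-fold. For IFN-λ4 the 1 higher at 6 h became 3 with median centring, 2 on deposited values, 0 with the 50th percentile filter, 3 at 1.5-fold and 0 at 3-fold, and the 0 at 16 h became 1 at 1.5-fold. Only uncalled values reversed in the limma fits. They were the 16 h against 6 h differences of DDIT3 (-0.077) and PSAT1 (-0.054) with median centring, and the overall ATF4 difference as the mean over probes (-0.21), without the IFN-λ4 arrays (-0.023) or without the IFN-α 16 h array (-0.24). The ATF4 difference at 16 h as the mean over probes was -0.017. The interactions of CHAC1 and DDIT4 reversed to -0.34 and -0.092 without the IFN-λ4 6 h array, and to -0.015 and -0.019 without the IFN-λ1 16 h array. Apart from the probe rule and the filter, whose construction changes what is tested, the cause was not tested.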

Other observations

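The bZIP factors that can pair with ATF4 or share its sites were counted in the comparison of IFN-α with IFN-λ. With IFN-α against IFN-λ at 6 h, 2 of 9 were higher and none lower in limma, among them the interferon-induced BATF2 (1.95, adjusted p = 0.0156). At 6 h 2.59% of all genes were higher and 1.18% lower. At 16 h, 2 were higher and 2 lower, against 7.7% and 7.21% of all genes, and BATF2 was among the lower (-0.96, adjusted p = 0.0404, limma). The AP-1 subunit JUN was higher at 16 h (1.37, adjusted p = 0.0144, limma) and its partner FOS lower (-0.91, adjusted p = 0.0351, limma). The counts at 16 h were 0 higher and 3 lower with median centring, 1 and 1 on deposited values, 2 and 0 without the IFN-λ1 16 h array, and 1 and 1 without the IFN-λ4 16 h array.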
